A study of Mus musculus with 26 samples.

Results

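The genes that make cholesterol and fatty acids were followed in mouse oligodendrocyte progenitor cells (OPCs) and in the oligodendrocytes (OLs) made from them. The 39 members were named by gene symbol: enzymes of the mevalonate and sterol arms, the SREBP regulators with a sterol carrier, and enzymes that synthesise, desaturate, elongate and activate fatty acids. Of these, 38 were listed for OPCs (of 8530 transcripts) and 39 for OLs (of 9751). The comparisons between cell types used the 38 listed for both, of 8177 transcripts in all. The remaining member, Elovl7, was listed for OLs alone.

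Both cell types came from the 129S/SvEv strain. OPCs were derived from epiblast stem cells and kept with bFGF and PDGFA, and OLs were OPCs put into differentiation with T3, noggin, IGF-1, cyclic AMP and NT3 for 40 h before labelling began. Cells were then labelled for 24 h with 5-ethynyl uridine (5-EU), a uridine analogue by which new RNA can be captured, and labelled RNA was sequenced at 0, 1, 2, 4 and 6 h after a change to uridine, in 3 OPC replicates and 2 OL replicates. The labels give no deletion or transgene for either group, and the OLs came from a pair of the OPC replicates that the labels do not number.

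Cholesterol is built from acetyl-CoA through mevalonate, farnesyl diphosphate, squalene and lanosterol. Its genes and those of fatty acid synthesis are targets of the SREBP transcription factors, which SCAP carries out of the endoplasmic reticulum when sterols are low and which the INSIG proteins hold back when sterols are high. Myelin is rich in cholesterol and in long fatty acyl chains, and oligodendrocytes can make both themselves.

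The 9 oligodendrocyte markers checked summed to 39.2 to 57.5 FPKM (fragments for each kilobase of a transcript, relative to all mapped reads) in OPCs at 0 h and to 2936 to 6315 FPKM in OLs. All 9 were listed for OLs and 3 for OPCs. The 5 OPC markers did not fall as a list: they summed to 198 to 327 FPKM in OPCs and 536 to 558 FPKM in OLs, where Gpr17, a receptor of cells early in differentiation, took 323 and 299 FPKM. Markers of dividing cells summed to 281 to 408 FPKM in OPCs and 66.3 to 141 FPKM in OLs. Of 5 astrocyte markers, 2 were listed for OPCs and 4 for OLs, with sums of 190 to 233 and 325 to 394 FPKM. S100b was at 9.07, 10.5 and 9.11 FPKM in OPCs and 290 and 160 FPKM in OLs, while Slc1a3 was at 224, 179 and 200 FPKM in OPCs and 95.5 and 155 FPKM in OLs. Gfap was at 6.86 and 8.12 FPKM and Aldh1l1 at 1.72 and 2.44 FPKM in OLs, and neither was listed for OPCs. Of 5 neuronal markers, 2 and 3 were listed, with sums of 81.8 to 183 and 188 to 203 FPKM. None of 4 microglial markers was listed for either. The part of these differences in the results that follow was not tested, and in bulk RNA fewer cells of a type and less RNA per cell cannot be told apart.

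Promoters of 4 members are shown because they turn up in the differences in labelled RNA at 0 h described next. Acsl3 had the largest rise in OLs among members listed for both cell types, and Hmgcs1 rose and holds a sterol element match. Srebf1 and Fasn were the members that passed the test as lower in OLs. Each sequence is the 250 bases before a RefSeq start (GRCm38.p6), 5′ to 3′, with matches on either strand in capitals to TCACNCCAC (a sterol regulatory element), CCAAT (an NF-Y box) or GGGCGG (a GC box).
Hmgcs1, chr13:119690101-119690350, forward strand: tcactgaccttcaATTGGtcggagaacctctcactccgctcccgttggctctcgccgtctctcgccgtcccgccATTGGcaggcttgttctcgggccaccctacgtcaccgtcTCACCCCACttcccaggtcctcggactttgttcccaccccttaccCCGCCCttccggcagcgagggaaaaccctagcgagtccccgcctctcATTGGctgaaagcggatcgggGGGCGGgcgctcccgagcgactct
Acsl3, chr1:78657575-78657824, forward strand: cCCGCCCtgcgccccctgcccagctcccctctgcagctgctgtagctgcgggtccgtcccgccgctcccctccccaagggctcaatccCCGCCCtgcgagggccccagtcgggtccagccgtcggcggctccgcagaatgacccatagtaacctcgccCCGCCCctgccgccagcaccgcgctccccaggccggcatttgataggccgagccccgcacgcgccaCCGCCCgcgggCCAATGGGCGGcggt
Srebf1, chr11:60220628-60220877, reverse strand: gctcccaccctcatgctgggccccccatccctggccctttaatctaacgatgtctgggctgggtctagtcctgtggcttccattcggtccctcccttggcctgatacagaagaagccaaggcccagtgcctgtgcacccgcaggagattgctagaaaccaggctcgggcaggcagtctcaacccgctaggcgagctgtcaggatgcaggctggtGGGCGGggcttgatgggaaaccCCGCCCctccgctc
Fasn, chr11:120824548-120824797, reverse strand: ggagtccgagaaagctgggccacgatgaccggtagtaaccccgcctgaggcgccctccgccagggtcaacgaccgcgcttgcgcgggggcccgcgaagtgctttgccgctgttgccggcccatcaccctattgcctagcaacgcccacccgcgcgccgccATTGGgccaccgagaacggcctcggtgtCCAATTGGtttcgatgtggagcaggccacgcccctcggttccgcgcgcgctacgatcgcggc

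In windows of 300 bases around the start nearest to the measured transcript, 32 of 39 members matched a RefSeq entry, and Fdps, Fdft1, Sqle, Stard4, Scd1, Scd2 and Fads1 did not. Hmgcs1 was the only one of the 32 with TCACNCCAC (3.12%), which was present in 1.08% of the windows of 8080 listed genes and 1.24% of all 32851 windows. CCAAT was found in 21 member windows (65.6%), against 39.6% of listed genes and 37.4% of all windows. GGGCGG was found in 27 (84.4%), against 69.1% and 35.7%. In Fasn a CCAAT match and one on the other strand overlap, and in Acsl3 a CCAAT match abuts a GGGCGG match. These are matches of letters and not measured binding.

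Labelled RNA at 0 h, which reflects both new synthesis and decay during the labelling, was compared by limma on log2(FPKM + 1). Of 38 members, 7 were higher in OLs at an adjusted p under 0.05, against 13.8% of all 8177 transcripts, and 2 were lower, against 15.8%. The members' shares were 18.4% and 5.26%. In 12 members both OL replicates lay above all OPC replicates (28.0% of all transcripts did), and in 7 both lay below (31.4% did). The median log2 change of the members was 0.17, beside -0.01 for all transcripts. The counts varied with the libraries used: without OL replicate 1 no member passed, without OL replicate 2 there were 5, and without OPC replicate 3 there were 3 (Acsl3, Elovl1 and Hsd17b7). Where 1 OL replicate is left out, here and in what follows, the lone OL sample is assumed to vary like the OPC replicates, so a call can be lost with its size kept. In the limma fit with all replicates 11 members (28.9%) had an unadjusted p under 0.05. The share of all transcripts at that threshold was not counted, and the adjusted calls alone took in 13.8% and 15.8% of them.

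**Figure D1:**
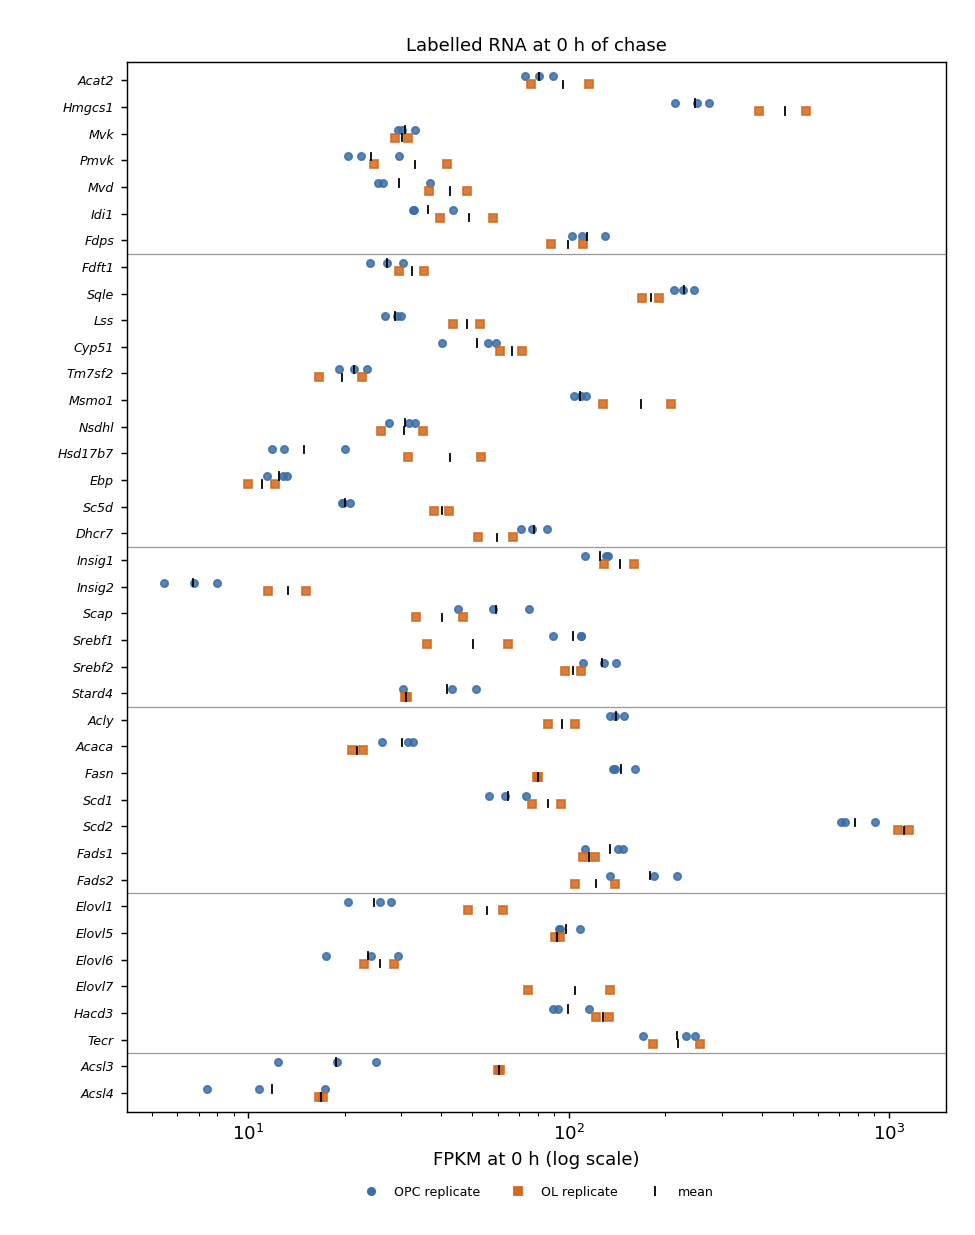
Labelled RNA of the 39 members at 0 h of chase, in FPKM on a log axis, grouped from top to bottom as mevalonate arm, sterol arm, SREBP control, fatty acid synthesis and desaturation, elongation and activation. Circles are OPC replicates, squares OL replicates and bars their means; Scd2 was the highest member in all 5 replicates and Insig2 the lowest in 4 of 5, with Ebp below it in OL replicate 2.

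Among the 7 genes of the mevalonate arm, Hmgcs1, the synthase that supplies HMG-CoA, was the member that passed. Its level was 215, 252 and 274 FPKM in the OPC replicates and 550 and 394 FPKM in the OL replicates. The OL values lay above all OPC values, 1.91-fold on the means (log2 change 0.92 ± 0.24, SE, limma adjusted p 0.0252). The measured transcript (ENSMUST00000179869) lies at chr13:119690446-119708082 on the forward strand. Its adjusted p was 0.175 without OL replicate 1 and 0.0658 without OPC replicate 3. Mvd, the decarboxylase that yields isopentenyl diphosphate, was at 25.4, 26.3 and 36.8 FPKM in OPCs and 48.3 and 36.7 FPKM in OLs, which overlap. Acat2, Mvk, Pmvk, Idi1 and Fdps had adjusted p between 0.265 and 0.919.

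In the sterol arm 3 of 11 members were higher in OLs and 0 lower by limma. Hsd17b7, a keto-reductase of sterol precursors, was at 11.8, 20.1 and 12.9 FPKM in OPCs and 53.4 and 31.5 FPKM in OLs, so that the groups did not overlap (log2 change 1.44 ± 0.32, SE, adjusted p 0.0125). Sc5d, a sterol desaturase, was at 20.7, 19.6 and 19.8 FPKM in OPCs and 38.0 and 42.4 FPKM in OLs. This was a 2.00-fold difference with little spread (0.97 ± 0.20, SE, adjusted p 0.0109). Lss, which closes the rings of lanosterol, was at 30.03, 26.7 and 29.2 FPKM in OPCs and 52.8 and 43.4 FPKM in OLs (0.72 ± 0.21, SE, adjusted p 0.0373), and lost its call with the libraries scaled to a shared median (0.056). Without OL replicate 1 none of the 3 passed (adjusted p 0.0566 to 0.201). Sc5d and Lss were also lost without OL replicate 2 (0.0725 and 0.0811) or OPC replicate 3 (0.057 and 0.122), and Lss without OPC replicate 2 (0.0646). Sqle, the squalene epoxidase, was at 228, 214 and 246 FPKM in OPCs and 192 and 169 FPKM in OLs, and Dhcr7, the reductase of the last step, was at 76.8, 71.0 and 85.6 FPKM and at 67.0 and 52.1 FPKM. Both lay below in OLs and did not pass (adjusted p 0.244 and 0.225). Cyp51 and Msmo1 lay above in both OL replicates and did not pass (adjusted p 0.294 and 0.119). Fdft1, Tm7sf2, Nsdhl and Ebp overlapped and did not pass either.

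Of the 6 genes of SREBP control and sterol transport, 1 was higher and 1 lower in OLs by limma. Srebf1, which encodes SREBP-1, was at 110, 89.6 and 109 FPKM in OPCs and 36.1 and 64.7 FPKM in OLs. Every OL value was below every OPC value, and the mean was 2.04-fold higher in OPCs (log2 change -1.07 ± 0.29, SE, adjusted p 0.0259). Srebf2, which encodes SREBP-2, the main activator of sterol genes, was at 129, 110 and 141 FPKM in OPCs and 97.4 and 109 FPKM in OLs (-0.29 ± 0.22, SE, adjusted p 0.351). Insig2 was at 6.78, 5.46 and 7.96 FPKM in OPCs and 11.5 and 15.1 FPKM in OLs, above in both (0.89 ± 0.24, SE, adjusted p 0.0283). Insig1, the more abundant INSIG in all 5 replicates, was at 112, 133 and 131 FPKM in OPCs and 160 and 129 FPKM in OLs, which overlap (adjusted p 0.526). Scap and the sterol carrier Stard4 did not pass. The call of Srebf1 was lost without OPC replicate 3 (-1.02, adjusted p 0.0897) or OL replicate 1 (-0.65, 0.181), and its change was -1.48 without OL replicate 2. That of Insig2 was lost without OPC replicate 2 or 3 or either OL replicate (0.0538 to 0.17).

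Among 7 genes of fatty acid synthesis and desaturation 0 were higher and 1 lower in OLs by limma. Fasn, the synthase that builds palmitate, was at 137, 140 and 160 FPKM in OPCs and 80.4 and 79.9 FPKM in OLs. The OL values were close to each other and below all OPC values (log2 change -0.85 ± 0.21, SE, adjusted p 0.019). Acly, which supplies cytosolic acetyl-CoA, and Acaca, which makes malonyl-CoA, lay below in both OL replicates too but did not pass (-0.56, adjusted p 0.0806, and -0.44, adjusted p 0.161). Scd2, a desaturase that makes oleate, was the most abundant member, at 709, 727 and 906 FPKM in OPCs and 1150 and 1069 FPKM in OLs. Its groups did not overlap, and it did not pass (0.51, adjusted p 0.114). Scd1, its paralog, was at 63.4, 56.4 and 73.8 FPKM in OPCs and 76.9 and 94.9 FPKM in OLs, also apart and not past the threshold (0.41, adjusted p 0.211). The polyunsaturated chain desaturases overlapped between the cell types, Fads1 at 142, 112 and 148 FPKM in OPCs and 121 and 111 FPKM in OLs, and Fads2 at 185, 134 and 217 FPKM in OPCs and 105 and 139 FPKM in OLs. The call of Fasn was lost without OPC replicate 3 or either OL replicate (adjusted p 0.088 to 0.0983).

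The elongases and acyl-CoA synthetases held 2 of the 7 rises, with the largest of the 7 in Acsl3. Elovl1, an elongase of saturated very long chains, was at 27.8, 20.5 and 25.7 FPKM in OPCs and 62.6 and 48.5 FPKM in OLs, with no overlap (log2 change 1.14 ± 0.24, SE, adjusted p 0.0106). Acsl3, an acyl-CoA synthetase, was at 12.3, 25.1 and 18.9 FPKM in OPCs and 61.0 and 60.1 FPKM in OLs, 3.23-fold higher on the means (1.69 ± 0.30, SE, adjusted p 0.00529). Its paralog Acsl4 was at 7.45, 17.4 and 10.8 FPKM in OPCs and 16.6 and 17.1 FPKM in OLs, within the OPC range. Elovl7, another elongase of long chains, was at 134 and 74.8 FPKM in the OL replicates and not listed for OPCs. Tecr, the reductase that ends each round of elongation, was among the most abundant members, at 248, 171 and 233 FPKM in OPCs and 257 and 183 FPKM in OLs, and neither it nor Elovl5, Elovl6 or Hacd3 passed. Without OL replicate 1, the log2 change was 0.96 for Elovl1 (adjusted p 0.0938) and 1.68 for Acsl3 (0.0538).

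How long the labelled RNA lasted was first described by the deposited half-lives, which were fitted per replicate and stop at a ceiling of 6 h. In the OPC replicates the median of the members reached 4.02, 4.19 and 5.29 h, and in both OL replicates it reached 6.00 h, beside medians of 2.35, 2.08 and 2.83 h and 4.54 and 4.44 h over all transcripts. At the ceiling lay 14, 16 and 18 members in the OPC replicates (36.8%, 42.1% and 47.4%, against 24.5%, 25.3% and 31.6% of all transcripts). In the OL replicates 22 and 23 did (57.9% and 60.5%, against 42.3% and 38.8%). The decay slope, described further on, has no ceiling: its median over the members was -0.29, -0.31 and -0.24 log2 units per h in OPCs (-0.32, -0.46 and -0.33 over all transcripts) and -0.18 and -0.15 in OLs (-0.19 and -0.20), so that in OL replicate 1 the medians were close.

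**Figure D2:**
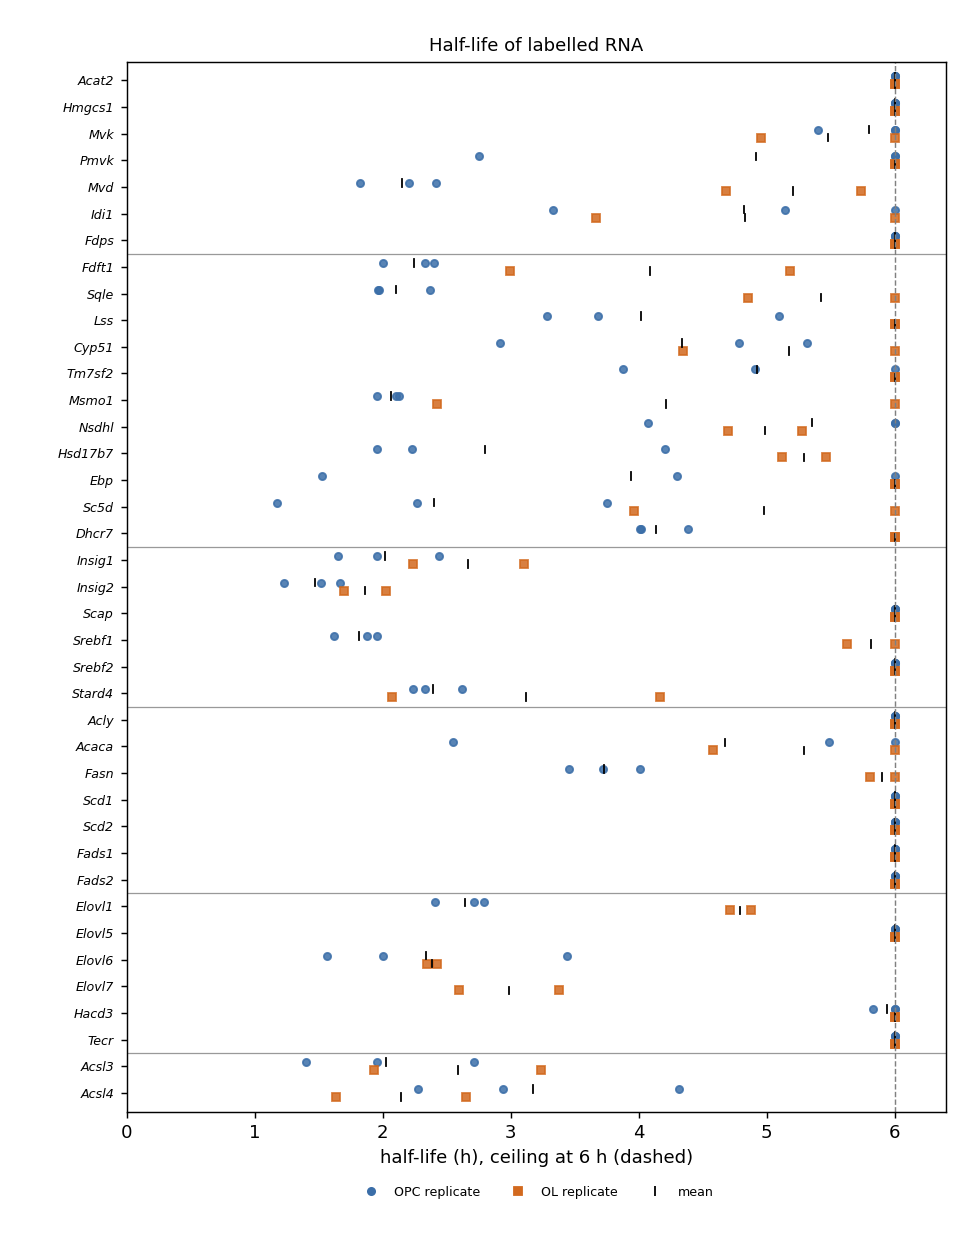
Half-life of each member in hours, in the same order and with the same symbols, with the 6 h ceiling dashed. A column of 12 members sits on the ceiling in all 5 replicates, while 10 members, Insig1, Insig2, Stard4, Mvd, Fdft1, Hsd17b7, Elovl1, Elovl6, Acsl3 and Acsl4, stay below it in every replicate of both cell types.

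A group of 12 members was at the ceiling in all 5 replicates: Acat2, Hmgcs1 and Fdps, Scap and Srebf2, Acly, Scd1, Scd2, Fads1 and Fads2, and Elovl5 and Tecr. This took in 5 of the 7 genes of fatty acid synthesis and desaturation and none of the 11 of the sterol arm. The median over the arm of the mean half-life was 3.94 h in OPCs and 5.29 h in OLs. The 3 shortest mean half-lives in OPCs were those of Insig2 (1.47 ± 0.22 h, SD, n = 3), Srebf1 (1.82 ± 0.174 h) and Insig1 (2.02 ± 0.397 h), all of SREBP control. In OLs they were those of Insig2 (1.86 ± 0.23 h, SD, n = 2), Acsl4 (2.14 ± 0.721 h) and Elovl6 (2.38 ± 0.0556 h). These neighbours in the order overlap in their spread. By replicate, Insig2 had half-lives of 1.52, 1.23 and 1.66 h in OPCs and 1.70 and 2.02 h in OLs, and Insig1 had 1.65, 2.44 and 1.96 h and 2.23 and 3.10 h. For Acsl3 they were 1.40, 1.96 and 2.71 h in OPCs and 1.93 and 3.24 h in OLs, and for Acsl4 2.94, 2.28 and 4.31 h and 1.63 and 2.65 h. Of these only Insig2 had both OL values above all OPC values. Elovl7 had half-lives of 3.37 and 2.59 h in OLs.

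By limma on log2 half-life, 4 of 38 members were longer in OLs (10.5%, against 3.39% of 8112 transcripts with 5 half-lives) and 0 were shorter (0.148% of all were). An unadjusted p under 0.05 was reached by 6 members (15.8%), and the share of all transcripts at that threshold was not counted. Both OL replicates lay above all OPC replicates in 12 members (31.6%, against 35.8%). The median log2 change was 0.27 for the members and 0.37 for all transcripts, and 12 members had a change of 0 because all 5 values were at the ceiling. With each replicate centred on its median 0 members passed, but this shift moved the median of all transcripts from 0.37 to -0.53 and gave members at the ceiling throughout a change of -0.90 (Acat2, for example). With the replicate number as a block, or when the fits left out the 6 h libraries, 0 passed. On half-lives in hours 6 did, with Fasn and Mvd beside the 4. Without OPC replicate 1, 2 or 3 the only member that passed was Srebf1, Dhcr7 or Elovl1, without OL replicate 1 it was Msmo1, and without OL replicate 2 there was none.

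Srebf1 had half-lives of 1.62, 1.96 and 1.88 h in OPCs and 6.00 and 5.63 h in OLs. The groups were far apart (log2 change 1.68 ± 0.10, SE, limma adjusted p 0.0222), and OL replicate 1 was at the ceiling, where longer estimates are not told apart. Srebf2 was at the ceiling throughout. At 6 h its labelled RNA was at 27.4%, 40.7% and 53.6% of the 0 h level in OPCs and 69.4% and 49.4% in OLs. A fitted value at the ceiling is thus no direct reading of the 6 h level. The measured Srebf1 transcript (ENSMUST00000020846, chr11:60199089-60220604, reverse strand) begins at one of several annotated starts, and isoforms were not told apart. Its call was lost without OPC replicate 2 or 3 or either OL replicate (adjusted p 0.0571 to 0.0922).

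Sqle (chr15:59315081-59331192) had half-lives of 1.97, 1.96 and 2.37 h in OPCs and 4.85 and 6.00 h in OLs, without overlap (log2 change 1.37 ± 0.15, SE, limma adjusted p 0.0478). Elovl1 (chr4:118428093-118432953) had 2.72, 2.80 and 2.41 h in OPCs and 4.71 and 4.88 h in OLs (0.86 ± 0.08, SE, adjusted p 0.0396). Elovl1 thus had more labelled RNA at 0 h and a longer half-life in OLs, measures that share the 0 h libraries, while its slope differed by 0.07 log2 units per h (adjusted p 0.5), less than the 0.14 of all transcripts. Dhcr7 (chr7:143823167-143848409) had 4.02, 4.38 and 4.01 h in OPCs and was at the ceiling in both OL replicates (0.54 ± 0.05, SE, adjusted p 0.0403). Its SE leaves out any spread beyond the ceiling, and its slope, which has none, differed by 0.12 log2 units per h (adjusted p 0.291), beside 0.14 for all transcripts. Without OL replicate 1 the adjusted p was 0.109 for Sqle, 0.138 for Elovl1 and 0.146 for Dhcr7, without OL replicate 2 it was 0.133, 0.141 and 0.142, and without OPC replicate 1 it was 0.135, 0.111 and 0.111. Sqle (0.128) and Elovl1 (0.0844) were also lost without OPC replicate 2, and Sqle (0.0812) and Dhcr7 (0.0961) without OPC replicate 3. Fasn (0.66, adjusted p 0.0517) and Mvd (1.28, adjusted p 0.0608) did not pass on the log2 scale and passed in hours.

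The decline was also fitted without a ceiling, as a slope of log2(FPKM + 1) over the 5 times, and the slopes of the cell types were compared by limma. The added 1 FPKM flattens the slope of transcripts at low levels. In this fit 4 of 38 members were shallower in OLs (10.5%, against 23.7% of all transcripts) and 0 were steeper (0.0856% of all were). Values of 0 at 6 h made up 15.7%, 21.6% and 16.4% of listed transcripts for OPC replicates 1, 2 and 3. For OL replicates 1 and 2 their share was 4.08% and 0.79%. Among members the only value of 0 at 6 h was that of Mvd, for OPC replicate 1. Members were not matched to all transcripts for level. The part of level and of these zeros in the gap between 10.5% and 23.7% was not tested. An unadjusted p under 0.05 was found for 9 members (23.7%). The share of all transcripts at that threshold was not counted, and the adjusted calls as shallower alone took in 23.7% of them. Both OL slopes lay above all OPC slopes in 16 members (42.1%, against 50.9%). The median change was 0.12 log2 units per h for members and 0.14 for all transcripts. Centring each replicate moved the latter to -0.03 and the calls over all transcripts from 1937 shallower and 7 steeper to 220 and 212, with Srebf1 the only member left. Without either OL replicate, or with a pseudocount of 0.1 FPKM, 0 members passed, and without the 6 h libraries 2 did (Srebf1 and Hsd17b7).

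**Figure D3:**
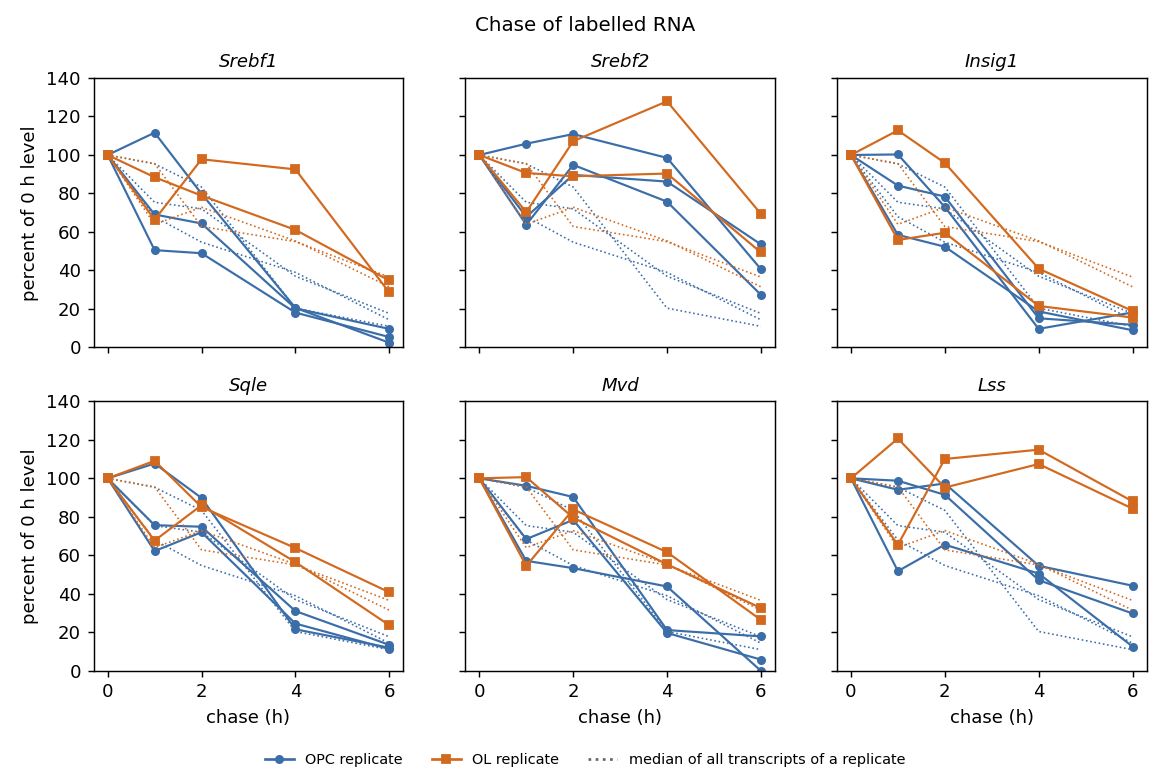
Labelled RNA as a percent of its 0 h level (y axis) over 6 h of chase (x axis) for 6 members, with a line per replicate (circles OPC, squares OL) and the median of all transcripts of each replicate dotted. At 4 h both OL lines of Srebf1, Insig1, Sqle, Mvd and Lss lie above all 3 OPC lines, as do the dotted OL medians, while those of Srebf2 overlap. Lss is at 88.0% and 84.3% in the OL replicates at 6 h.

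For Srebf1 the slopes were -0.64, -0.84 and -0.56 log2 units per h in OPCs and -0.22 and -0.24 in OLs, a difference of 0.45 ± 0.09 (SE, limma adjusted p 0.00774). By 4 h its labelled RNA was at 18.1%, 20.6% and 20.3% of the 0 h level in OPCs and at 92.5% and 61.1% in OLs. At 6 h it was at 5.41%, 2.46% and 9.64% in OPCs and 28.6% and 34.8% in OLs. In FPKM, Srebf1 was lower in OLs at 0 h, but at 4 h it stood at 19.8, 18.4 and 22.2 FPKM in OPCs and 33.4 and 39.5 FPKM in OLs. The 0 h values were read as unscaled and the 4 h values were scaled to spike-ins, and this change of order was not tested. The difference in slope was 0.28 after centring (adjusted p 0.0459). Without OL replicate 1 or 2 its adjusted p was 0.0908 or 0.0738.

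The other 3 calls belonged to sterol synthesis. Mvd (chr8:122433601-122443422) had slopes of -0.68, -0.45 and -0.61 in OPCs and -0.25 and -0.27 in OLs (difference 0.33 ± 0.09 log2 units per h, SE, adjusted p 0.0209), and it was listed at 0 in OPC replicate 1 at 6 h. Lss (chr10:76531607-76555479) had slopes of -0.37, -0.30 and -0.21 in OPCs and 0.02 and -0.05 in OLs (0.28 ± 0.08, SE, adjusted p 0.0282). Its labelled RNA in OLs was at 88.0% and 84.3% of the 0 h level at 6 h, and in OPCs at 12.6%, 29.8% and 44.2%. Sqle had slopes of -0.52, -0.58 and -0.48 in OPCs and -0.31 and -0.23 in OLs (0.26 ± 0.08, SE, adjusted p 0.0337). Without OL replicate 1 or 2 the adjusted p of the 3 genes was 0.119 to 0.226. Lss was also lost without OPC replicate 1 (0.0597), Sqle without OPC replicate 2 (0.0535) and Mvd without OPC replicate 3 (0.051).

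Since an error in a library's spike-in scale moves all of its transcripts together, each slope was also ranked among the 8177 slopes of its own replicate, from 0 (steepest fall) to 100. The rank of Srebf1 was 5.41, 2.94 and 14.5 in OPCs and 44.1 and 40.0 in OLs, from among the steepest to near the middle. Lss was at 41.6, 69.4 and 66.8 in OPCs and 85.3 and 81.9 in OLs. Both OL ranks lay above all OPC ranks in 7 members (18.4%, against 18.3% of all transcripts): Srebf1, Lss, Scd1, Scd2, Elovl5, Fads1 and Fads2. They lay below in 9 (23.7%, against 23.0%): Acat2, Nsdhl, Insig1, Insig2, Stard4, Acly, Elovl1, Elovl6 and Acsl4. The shares were thus near those of all transcripts. Insig2, with the shortest mean half-life in OPCs, ranked at 47.1, 53.9 and 25.9 there and at 17.1 and 11.5 in OLs. Its 0 h level was 5.46 to 7.96 FPKM in OPCs and 11.5 and 15.1 FPKM in OLs, and the added 1 FPKM flattens a lower level more. The part of this in the ranks was not tested.

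**Figure D4:**
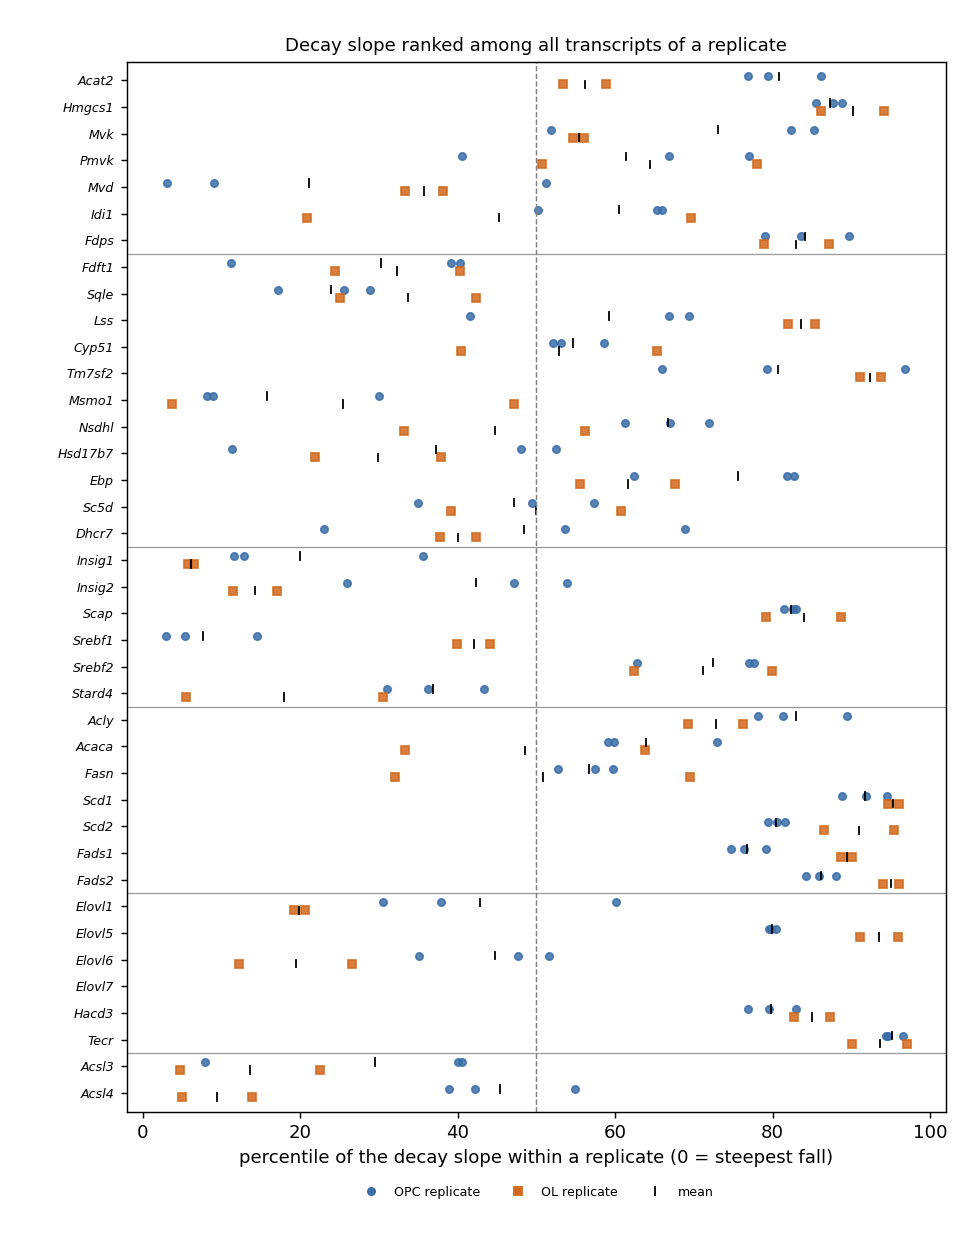
Percentile of each member's decay slope among the 8177 transcripts of its own replicate (x axis, 0 the steepest fall, dashed line at the median), with members and symbols as in the plot of levels. Tecr, Scd1, Hmgcs1 and Fads2 rank at least 84.3 in all 5 replicates, and Srebf1 ranks at most 14.5 in OPCs and at least 40.0 in OLs.

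Among the fatty acid desaturases, Fads2 was at 85.9, 88.1 and 84.3 in OPCs and 96.0 and 94.1 in OLs, and Scd1 was at 94.5, 88.9 and 91.9 and at 96.0 and 94.6. Insig1 ranked low, at 11.6, 35.6 and 12.9 in OPCs and 5.79 and 6.50 in OLs. Elovl1, whose half-life was longer in OLs, had a lower rank there (19.2 and 20.7, against 30.5, 60.2 and 37.95). The order of the members was much alike between replicates: Spearman's rho of their slopes over 38 members was 0.83 to 0.872 between OPC replicates, 0.832 between OL replicates and 0.759 to 0.823 across cell types, as a description.

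Paralogs were compared within a library, where a shared scale nearly cancels. The slope of Srebf1 minus that of Srebf2 was -0.39, -0.65 and -0.46 log2 units per h in OPCs and -0.19 and -0.10 in OLs. Srebf1 fell faster than Srebf2 in all 5 replicates, by less in both OL replicates (exact two-sided permutation p 0.1, the smallest possible with 3 against 2, and 0.25 adjusted over 5 pairs). Scd1 minus Scd2 was 0.17, 0.15 and 0.12 in OPCs and 0.01 and 0.06 in OLs (exact p 0.1, adjusted 0.25). The other pairs, Insig1 and Insig2, Fads1 and Fads2, and Acsl3 and Acsl4, gave exact p of 0.2 to 0.3 (adjusted 0.3). At 0 h the log2 ratio of Acsl3 to Acsl4 was 0.73, 0.53 and 0.81 in OPCs and 1.88 and 1.82 in OLs, without overlap (exact p 0.1, adjusted 0.167). That of Srebf1 to Srebf2 was -0.23, -0.30 and -0.36 in OPCs and -1.43 and -0.76 in OLs, and that of Insig1 to Insig2 was 4.05, 4.61 and 4.04 in OPCs and 3.80 and 3.09 in OLs, also without overlap and with the same exact p of 0.1 (adjusted 0.167). Fads1 to Fads2 gave an exact p of 0.3 and Scd1 to Scd2 one of 0.6.

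Sequence features that the choice of members did not use were compared as a description. The 12 members at the ceiling throughout had a median G+C share at the last base of codons (GC3) of 70.6%, the 18 members below the ceiling in all OPC replicates had 63.2%, and all 10090 transcripts had 60.6%. The share of phenylalanine codons that are UUU was 24.9%, 45.4% and 44.4% in these groups, and that of lysine codons that are AAA was 27.4%, 44.1% and 37.5%. Over 38 members Spearman's rho between GC3 and the mean slope was 0.418 in OPCs and 0.572 in OLs, beside 0.0346 and 0.209 over 8166 transcripts. All points of a cell type share its libraries, and their depth is unknown. The other 9 members had medians of 58.8% (GC3), 46.7% (UUU) and 37.5% (AAA). Members at the ceiling throughout were not all alike: Hmgcs1 had a GC3 of 47.3%, and Acat2 had a GC3 of 53.9% and UUU in 87.5% of its phenylalanine codons. With the length of the 3′ untranslated region rho was -0.177 and -0.171 over members and -0.0474 and -0.265 over all transcripts.

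**Figure D5:**
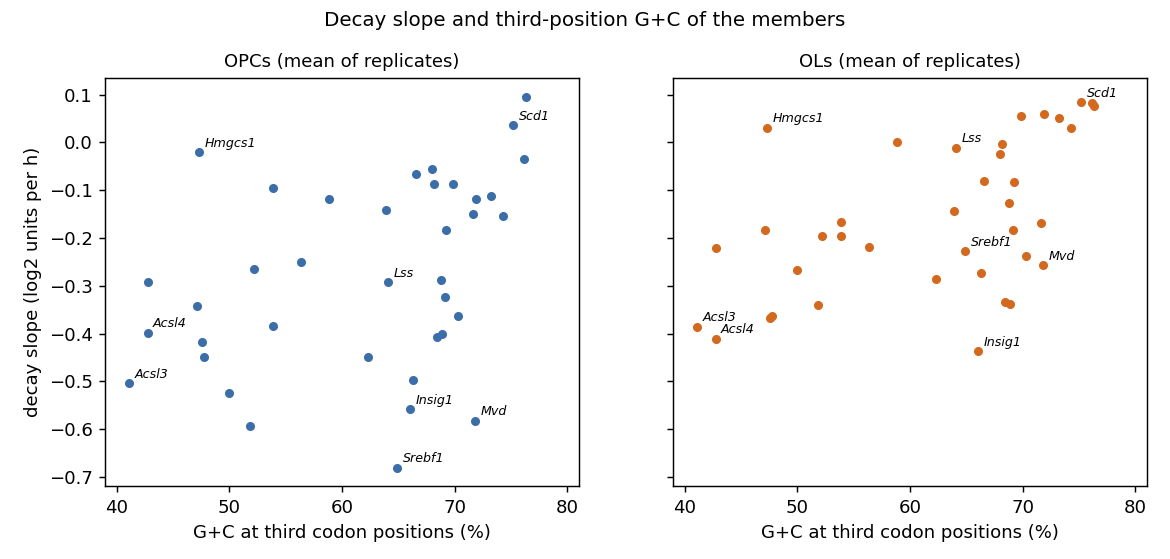
Mean decay slope (y axis, log2 units per h) against the G+C share at the last codon position (x axis, percent) for 38 members, in OPCs on the left and OLs on the right, 1 point per gene. Acsl3 lies at a low G+C share and a steep slope in both panels, Scd1 at the high end, and Hmgcs1 pairs a low G+C share with a slope near 0.

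Of 30 other genes of lipid metabolism, 23 were listed for both cell types. At 0 h 2 of the 23 passed as higher and 3 as lower in OLs by limma, against 13.8% and 15.8% of all transcripts. Abca1, a cholesterol exporter, was at 2.30, 1.18 and 1.58 FPKM in OPCs and 10.95 and 31.1 FPKM in OLs (log2 change 2.89, adjusted p 0.00189), and Hacd2, a dehydratase of elongation, rose by 1.38 (0.00672). Among the lower ones, the elongase gene Elovl2 had a log2 change of -1.28 (0.0189) and the acyl-CoA synthetase gene Acsl5 one of -1.46 (0.00943). In half-life 0 passed by limma, against 3.39% longer and 0.148% shorter over all transcripts, and Me1, without an OL half-life, was not tested. An unadjusted p under 0.05 in half-life was reached by 5. For half-life and slope the share of all transcripts at that unadjusted threshold was not counted. In slope 6 had an unadjusted p under 0.05, and after adjustment 5 of the 23 slopes were shallower and 0 steeper in OLs, against 23.7% and 0.0856% of all transcripts. The shallower ones took in those of the sterol receptor gene Nr1h2 (0.36, adjusted p 0.016), Npc1 of sterol export from lysosomes (0.40, 0.0135) and Lpin1 (0.30, 0.0205).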

How the data were processed

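Labelled RNA was measured in 25 libraries, and the OPC control without biotin was not analysed here. The authors mapped reads to GRCm38 with HISAT2 2.1.0 and tabulated FPKM with StringTie 1.3.5. The deposited FPKM values after 0 h were scaled by the authors to 5-EU spike-ins; the 0 h columns were read as unscaled, from their decimals. The deposited half-lives (h) come from an exponential fit per replicate by the authors, capped at 6 h. Read depth is unknown. Members and lists were chosen with earlier results of these data known. Groups followed the labels. Values were tested with limma 3.58.1 (R 4.3.3) on log2(FPKM + 1), on log2 half-life and on slopes over time, with Benjamini-Hochberg adjustment over all transcripts at 0.05, and the code was tested on simulated data. Values of some genes outside the members are not reported here. Replicates are the study's biological replicates. Per-replicate values are given for members that passed, those with extreme half-lives or levels, and paralog pairs; others outside the rule were chosen after their values were seen. Alternatives were other pseudocounts (0.1 FPKM), a mean of at least 5 FPKM, scaling, centring, left-out times and replicates, and a replicate block. Coordinates and coding features were read from GENCODE M21 on GRCm38 with Python 3.11.15.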

Additional observations from a re-analysis of the deposited data

Results flagged for a closer look

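The decay slope differed between the cell types by limma in 4 of 38 members (10.5%, against 23.7% of all transcripts called shallower), each shallower in OLs: Srebf1 by 0.45 log2 units per h, Mvd by 0.33, Lss by 0.28 and Sqle by 0.26. The groups behind the shares of 10.5% and 23.7% were not matched for level or for values of 0 at 6 h. In Elovl5 and Fads2 all 3 OPC slopes were below 0 and both OL slopes were above 0, with differences of 0.18 and 0.12 log2 units per h. These 2 were looked at for their opposite signs, and neither passed the limma comparison (adjusted p 0.104 and 0.287). A slope above 0 is a rise over the chase and not a rate of decay: Fads2 in the OL replicates was at 178% and 107% of its 0 h level at 4 h. The median difference of all transcripts was 0.14, and after centring each replicate the differences were 0.28 for Srebf1 (adjusted p 0.0459), 0.15 for Mvd (0.305), 0.10 for Lss (0.409), 0.08 for Sqle (0.503), 0.0016 for Elovl5 and -0.06 for Fads2.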

How the results depend on the processing

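At 0 h 9 members were called, and leaving out 1 replicate gave 0 to 9 (without OPC replicate 2 Acsl4 passed and Lss and Insig2 did not), with 0 to 7 higher and 0 to 2 lower in OLs. With the replicate number as a block 6 were higher and 1 was lower, and the calls of Fasn (adjusted p 0.0984) and Lss (0.121) were lost. For half-life the count of 4 was 0 with centring, without the 6 h libraries or with the block (adjusted p 0.155 to 0.218 for the 4), and 0 to 1 with a replicate left out. Centring moves every half-life change alike (to -0.90 for Acat2, at the ceiling throughout), which by construction takes Dhcr7 to -0.37 and Elovl1 to -0.039. On half-lives in hours the count was 6. For decay slope the count of 4 was 0 with a pseudocount of 0.1 FPKM, 1 with centring (Srebf1), 2 without 6 h (Srebf1 and Hsd17b7), 0 to 4 with a replicate left out (Fdft1 in place of Lss without OPC replicate 1) and 4 with the block. Leaving out the 1 h libraries, chosen after seeing the data, gave 5 half-life calls and 4 slope calls. The replicate numbers were not shown to mark a pairing: deviations of same-numbered replicates correlated at 0.06 and 0.01 at 0 h, and over all pairs and measures the correlations ran from -0.105 to 0.105. With unknown depth and 2 OL replicates, members that did not pass cannot be called unchanged, and changes past the ceiling cannot be seen.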
